A study of Danio rerio with 7 samples.

Results

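The genes described here are 38 genes of module 6, 1 of 8 gene modules deposited for sorted zebrafish heart muscle cells. They are the genes that the annotation chart of module 6 lists under kinase activity, ATP binding or nucleotide binding and does not list under nucleus. Those 3 rows hold 67 genes of the 438 in module 6, and the 8 modules together hold 4449. Modules 1 to 8 hold 1543, 600, 357, 475, 494, 438, 379 and 163 genes in that order. Counts of a family per module stand against these unequal sizes. Of the 67 genes, 22 stand in the nucleus row as well, and a further 7 (HK1, PFKM, PFKP, PDK4, EEF2K, MYLK4 and HSPD1) were left out by symbol. The choice used the annotation chart and no expression value.

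The cells came from adult zebrafish ventricles 7 days after cryoinjury, sorted 1 cell per well by the nppa:mCitrine reporter and labelled as (border zone) cardiomyocytes. Wildtype fish gave 3 plates and hmga1a mutant fish 4, and fish of both groups carried the reporter and the injury. The exact age of these adult fish, the kind of hmga1a mutation, the fish per plate and the way the modules were made are details not given in the sources used here. Each list holds identifiers only. Depth, levels and replicate error are therefore unknown, no direction between the genotypes can be given for any gene, and the labelled cell type could not be checked against levels of its markers.

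Kinases move a phosphate from ATP to a protein, lipid or small molecule, and many relay signals from receptors at the cell surface. Other proteins bind ATP or GTP to do work: myosins pull on actin, pumps and transporters move ions or lipids, helicases unwind RNA or DNA, and GTP-binding proteins act as switches or build microtubules. In heart muscle, kinases that answer to cyclic AMP, calcium and insulin tune the strength of the beat and the use of fuel. Myosin heavy chains turn ATP into force.

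The label of kinase covered a minority of the genes. Of the 38, 13 stood in the kinase activity row, 28 under ATP binding and 33 under nucleotide binding, and 12 stood in all of these rows. A further 12 were listed under ATP and nucleotide binding, 4 under ATP binding alone, 9 under nucleotide binding alone and 1 under kinase activity alone. That 1 gene was NUCKS1 (ENSDARG00000078473), named as a nuclear substrate of casein and cyclin-dependent kinases and not known as a kinase itself. By symbol, 12 of the 38 belonged to kinase families, and these were the genes of the kinase activity row other than NUCKS1.

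The label of non-nuclear rests on 1 row of the chart and not on where the proteins are known to work. Among the 38 were chd4b (ENSDARG00000025789), a chromatin remodeller of the NuRD complex, DHX15 (ENSDARG00000015392), a helicase that takes spliceosomes apart, and NUCKS1. All of them are known for work in the nucleus. In the cytoplasm row stood 13 of the 38, among them camk2d2, UPF1, PAN3, MYO1C and the synthetases RARS1 and NARS1, beside 112 of 318 annotated genes of module 6 in the authors' deposited table. No cytosol row listed any of the 38, but whether the chart holds such a row was not recorded.

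**Figure D1:**
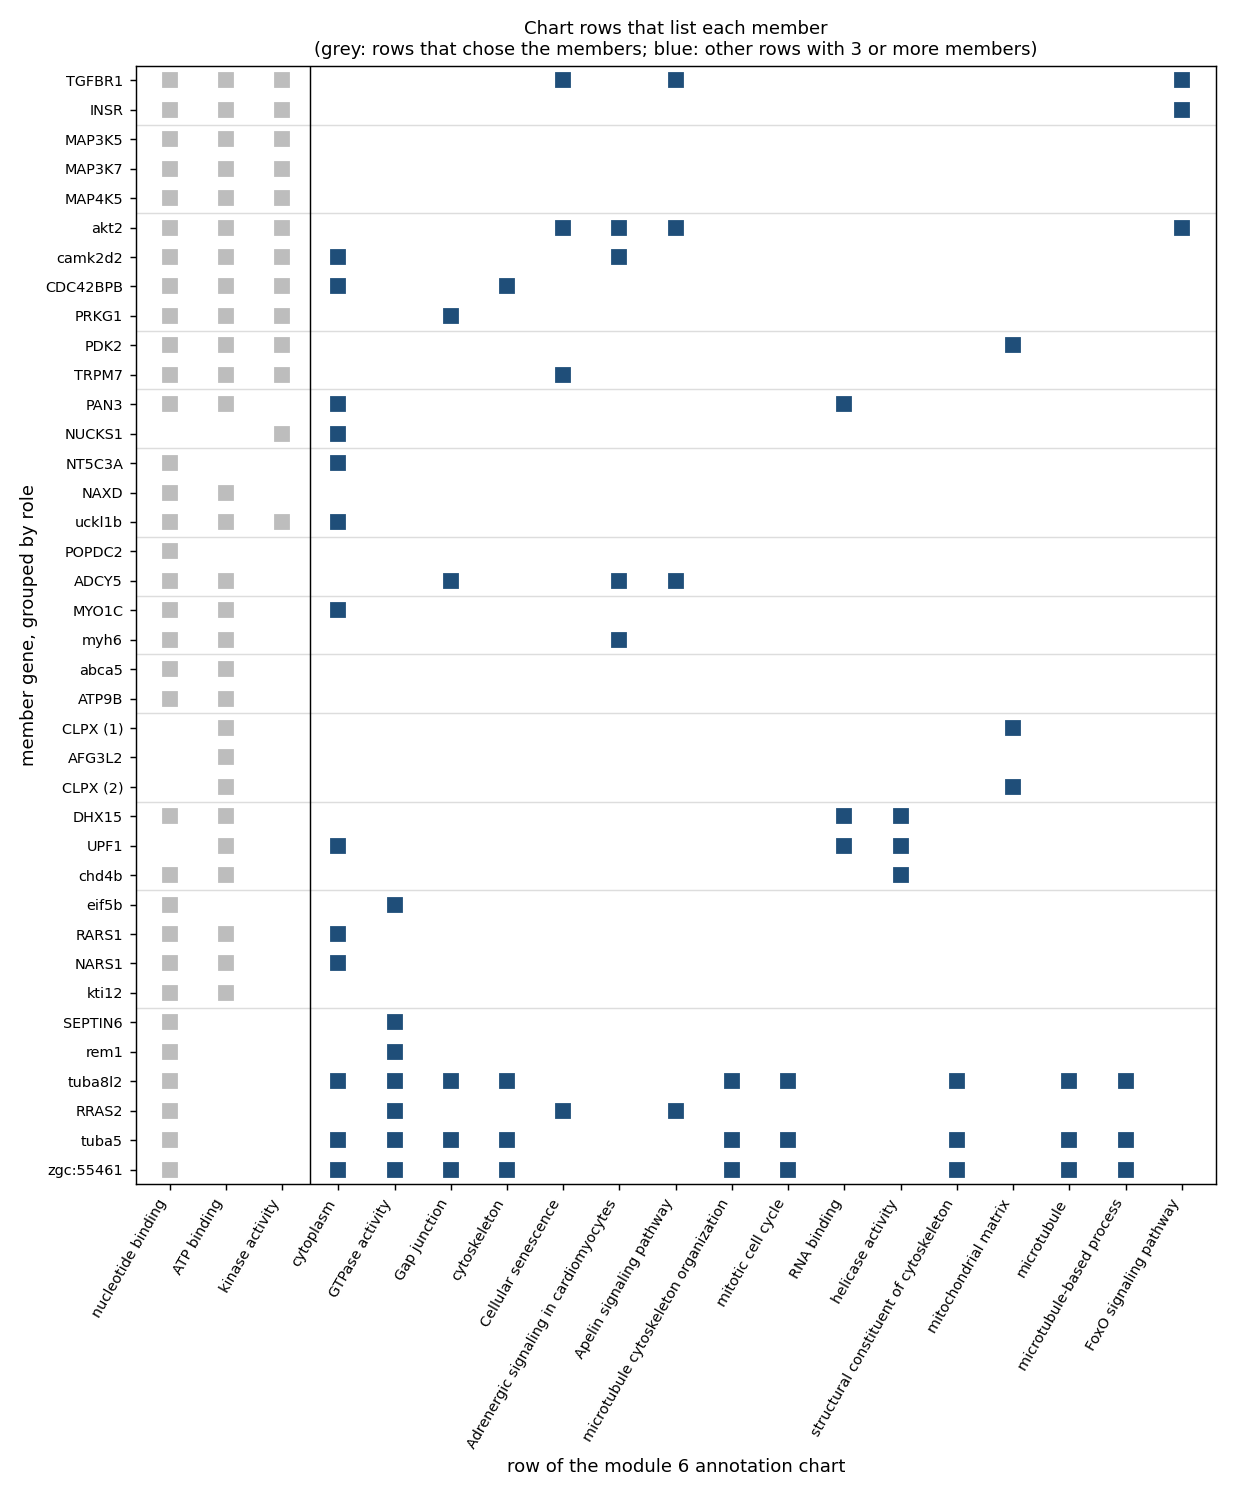
Each line is 1 of the 38 genes, grouped by role, and each column is a row of the module 6 chart; a square marks a gene that the row lists. Grey squares are the rows that chose the genes, and blue squares are other rows holding at least 3 of them. Metal, zinc and magnesium ion binding are not drawn. Rows on phosphorylation and on protein kinase, transferase or hydrolase activity are not drawn either. The gene akt2 shares signalling pathways with TGFBR1, INSR and ADCY5, and the 3 genes of the tubulin rows carry the same set of rows.

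Insulin and growth factor signalling was represented from the receptor to its downstream kinase. INSR (ENSDARG00000071524) encodes the insulin receptor, a tyrosine kinase, and akt2 (ENSDARG00000011219) a kinase that acts downstream of it on glucose uptake and survival. Both stood in the insulin pathway row, in the FoxO pathway row and among the 3 genes of glucose homeostasis. The other genes of the insulin row in module 6 included IRS2, which docks on the active receptor, PPARGC1A, PPP1CB and the glycogen phosphorylases PYGM and PYGB. Its remaining kinases were PRKAA1, the catalytic part of AMP-activated kinase, which the nucleus row lists, and HK1, left out by symbol.

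The insulin pathway row held 10 genes of module 6, and its fold enrichment in the authors' deposited table was 3.27 (p = 0.00319, Benjamini-adjusted p = 0.0766). The FoxO pathway row held 9 genes, with 2.93-fold enrichment in the authors' deposited table (adjusted p = 0.151). It added TGFBR1 and the transcription factor foxo3b, among others, to INSR, akt2 and IRS2. Both rows were also listed for module 2, where the authors' deposited table gives 12 insulin pathway genes at 2.69-fold and 9 FoxO pathway genes at 2.00-fold. The route therefore did not lie in module 6 alone. Among partners looked up after the charts were seen, IRS1, a further identifier of IRS2, PIK3R1 and the sister kinase akt3b lay in module 5, PIK3CA in module 2 and FOXO1 in module 1.

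TGFBR1 (ENSDARG00000042259), the type 1 receptor kinase of TGF-beta, was listed under apelin signalling, FoxO signalling, cellular senescence and heart development. Its type 2 partner TGFBR2 lay in module 1. Of the ligands, tgfb1b lay in module 1, tgfb1a in module 2 and tgfb5 in module 5. The signal carrier SMAD3 lay in module 4 and the inhibitor SMAD7 in module 2. SMAD1, a further gene of the SMAD family, lay in module 2 as well. Of 5 receptor kinases of the TGF-beta family in any module, TGFBR1 was the 1 in module 6; BMPR2 stood on identifiers in modules 1 and 8, and ACVR1B lay in module 3.

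Genes that answer to adrenaline and cyclic AMP were the second signalling group. ADCY5 (ENSDARG00000091342) encodes a cyclase that makes cyclic AMP in heart muscle, and camk2d2 (ENSDARG00000014273) a calcium/calmodulin-dependent kinase of the delta type. Together with akt2 and the myosin gene myh6 they stood in the row of adrenergic signalling in cardiomyocytes, 4 of its 10 genes. The others included gnaia, an inhibitory G protein subunit, SLC8A1, the sodium-calcium exchanger, TNNC1, the calcium sensor of the thin filament, and the phosphatase genes PPP1CB and ppp2r3b. In the authors' deposited table the row had 2.42-fold enrichment (p = 0.0214, adjusted p = 0.228), and of the 8 charts that of module 6 was the one listing it. The fold is over 6895 annotated background genes, which are not stated to be limited to genes detected in heart muscle cells. Modules whose charts do not list the row may still hold genes of it.

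Adenylyl cyclases were spread out: ADCY5 lay in module 6, ADCY7 in module 1, ADCY3 in module 2 and ADCY2 in module 3. POPDC2 (ENSDARG00000069922), a Popeye domain protein that binds cyclic AMP at the membrane of heart and skeletal muscle cells, was listed under heart development, heart looping and skeletal muscle tissue development. With TGFBR1 it made 2 of the 12 heart development genes of module 6, beside the cardiac transcription factors NKX2-5, TBX20 and MEF2A, and the authors' deposited table gives that row 2.89-fold enrichment (p = 0.00315, adjusted p = 0.308). Its relative POPDC3 lay in module 6 as well, outside the 3 rows. PRKG1 (ENSDARG00000031702), the kinase switched on by cyclic GMP, lay in module 6, whereas npr1a, a natriuretic peptide receptor that makes cyclic GMP, lay in module 2.

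The gap junction row held 8 genes of module 6, and 5 of them were among the 38: ADCY5, PRKG1, tuba5, tuba8l2 and zgc:55461. The other 3 were CDK1 and the G protein subunits gnaia and gna11b. No connexin, the protein that forms the junction, stood among them, so the row gathered signalling and tubulin genes. Its enrichment in the authors' deposited table was 3.60-fold (p = 0.00639, adjusted p = 0.107). The apelin row, named for a peptide that raises cardiac contractility, held 11 genes, of which akt2, ADCY5, TGFBR1 and RRAS2 were among the 38. Its enrichment in the authors' deposited table was 3.36-fold (p = 0.00145, adjusted p = 0.0697). The cellular senescence row, 2.36-fold in the authors' deposited table (p = 0.0511, adjusted p = 0.378), held 8 genes, of which akt2, TRPM7, RRAS2 and TGFBR1 were among the 38; foxo3b, PPP1CB and CDK1 were among the others.

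Of the 115 rows in the module 6 chart, 9 (7.83%) had an adjusted p under 0.05 in the authors' deposited table, and of the 50 rows that hold any of the 38 genes, 6 did. They were nucleotide binding, cytoplasm, kinase activity, ATP binding, RNA binding and phosphorylation. Nucleotide binding, kinase activity and ATP binding chose the genes, and phosphorylation lists the same 13 of the 38 as kinase activity. Of the 17 pathway rows in the chart, 1 passed that threshold, and none of the 8 with any of the 38 did. The largest unadjusted p of the authors' enrichment among the 50 rows was 0.098, so the chart may list only rows with a low p. In that case the 9 of 115 is a share of rows already chosen by p. The rows share genes and are not independent of each other: akt2 alone stood in 6 of the pathways.

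**Figure D2:**
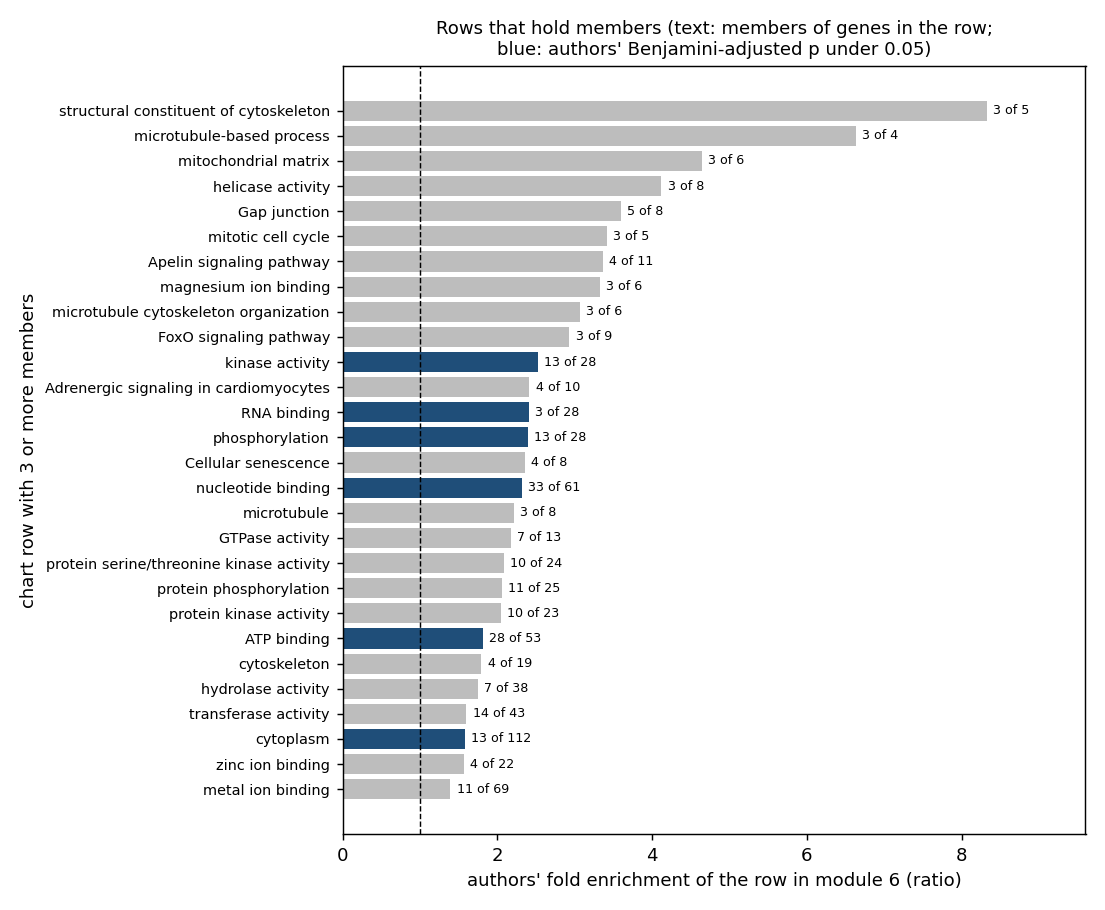
Bars give the authors' fold enrichment, a ratio, for each row of the module 6 chart with at least 3 of the 38 genes; the text beside a bar gives how many of the row's genes are among the 38, and the dashed line marks a ratio of 1. Blue rows have an authors' Benjamini-adjusted p under 0.05; the gap junction row reached 3.60-fold with 5 of 8 genes and stayed above that threshold.

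Stress-activated kinases formed a further group. MAP3K5 (ENSDARG00000005416), known as ASK1, starts the JNK and p38 cascades in oxidative stress, and MAP3K7 (ENSDARG00000020469), known as TAK1, starts them after TGF-beta and inflammatory cytokines. MAP4K5 (ENSDARG00000039125) is a germinal centre kinase upstream of JNK. None of the 3 stood in any of the 17 pathway rows that the module 6 chart lists, and pathways outside the chart were not looked up. Beyond the 3 rows that chose the genes, MAP4K5 stood only in chart rows on protein kinase activity, phosphorylation and transferase activity. Of the 15 MAP kinase cascade and STE genes in any module, these 3 were the ones in module 6. Module 2 held 6, namely the p38 kinases MAPK14 and mapk13, MAP3K8, MAP3K10, BRAF and the scaffold KSR1. TAB2, a binding partner of MAP3K7, lay in module 5.

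The remaining kinases act on the cytoskeleton, in mitochondria, at ion channels and on nucleosides. CDC42BPB (ENSDARG00000019383), a kinase bound by the GTPase CDC42, stood in the rows of cytoskeleton and actin cytoskeleton organisation. TRPM7 (ENSDARG00000036232) is a magnesium-permeable channel fused to a kinase. It was 1 of 4 genes under regulation of heart rate, a row that also held MYBPC3 and SORBS2. That row had 30.7-fold enrichment in the authors' deposited table (p = 0.000224, adjusted p = 0.0876), from 4 genes in module 6 against 8 in the whole background. PDK2 (ENSDARG00000020876), a kinase that switches pyruvate dehydrogenase off, stood in the mitochondrial matrix row, which also held PDK4, HSPD1, foxo3b and the 2 identifiers of CLPX. That row had 4.65-fold enrichment in the authors' deposited table (p = 0.00943, adjusted p = 0.409). A further identifier with the symbol PDK2 lay in module 1. The uridine kinase gene uckl1b (ENSDARG00000078973) lay in module 6 and its copy uckl1a in module 1.

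Across the modules, 33 of 166 genes with a symbol in the 14 kinase families lay in module 6 (19.9%, exact 95% interval 14.1% to 26.8%). Module 6 held 9.84% of all module genes and 10.2% of module genes with a symbol, the set in which families were matched. Those 33 include the 12 genes described here, and the chart that chose them already lists kinase activity for module 6, so the share describes the module and is no separate evidence. Intervals cover counting error only. Serine/threonine kinases of the 7 families counted were in module 6 in 20 of 92 cases (21.7%, interval 13.8% to 31.6%) and tyrosine kinases in 1 of 27 (3.70%, interval 0.0937% to 19.0%). That 1 was INSR. The CAMK family had 7 of 24 genes in module 6, of which camk2d2 was the 1 outside the nucleus row and the symbols left out; snrkb, NUAK1, spega, PRKAA1 and SIK2 stood in the nucleus row. CAMK2B, a further calcium/calmodulin-dependent kinase II gene, lay in module 4, and CAMK2N2, matched by symbol to the family, is an inhibitor of that kinase and lay in module 5.

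The charts of modules 1 and 2 also list a kinase activity row, and those of the other 5 modules do not. A row missing from a chart does not mean that the genes are missing. By symbol, modules 4 and 5 held 13 and 16 kinase family genes. In the authors' deposited table the row held 58 genes in module 1 (1.67-fold, adjusted p = 0.0888), 25 in module 2 (1.63-fold, adjusted p = 1) and 28 in module 6 (2.52-fold, adjusted p = 0.00345). Tyrosine kinases were 12 of the 58 in module 1 (20.7%, exact interval 11.2% to 33.4%), 3 of the 25 in module 2 (12%, interval 2.55% to 31.2%) and 1 of the 28 in module 6 (3.57%, interval 0.0904% to 18.3%). The intervals overlap, and the difference was not tested. In module 1 the focal adhesion kinase gene ptk2ab was not matched by symbol and is not among the 12. Atypical protein kinases were 4 of the 28 in module 6, namely PDK2, PDK4, EEF2K and TRPM7, against 2 of 58 in module 1 and 1 of 25 in module 2.

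**Figure D3:**
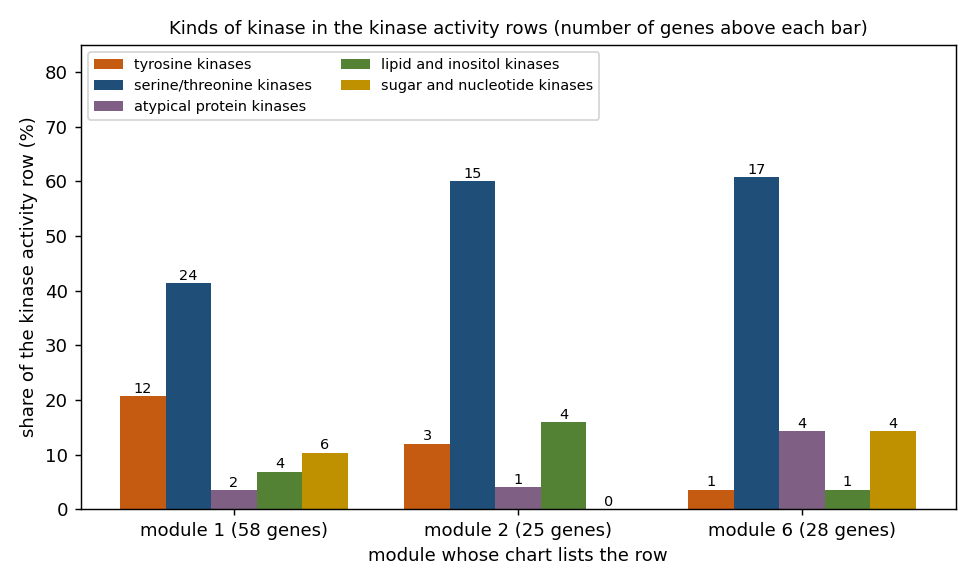
Bars give the share, in percent, of each kind of kinase in the kinase activity row of the 3 charts that list it, and the number above a bar is its count of genes. Tyrosine kinases were 12 of 58 in module 1 and 1 of 28 in module 6; genes without a family are not drawn.

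The myosins were myh6 (ENSDARG00000090637), the atrial myosin heavy chain, and MYO1C (ENSDARG00000061579), a single-headed myosin that ties membranes to actin. The chart listed myh6 under heart contraction, beside DES, LRRC10, NKX2-5, APEX1 and ogdha. Of 16 myosin heavy chain genes in any module these were the 2 in module 6, and module 4 held 6, among them myh7ba, myh7bb, MYH9 and a capitalised MYH6. The transporters were ATP9B (ENSDARG00000062521), a P-type ATPase related to lipid flippases, and abca5 (ENSDARG00000074041), an ABC transporter of the A class. ATP9B was the 1 gene of module 6 among 38 genes matched by symbol to the transport ATPases. Of those matched, 19 lay in module 7 and were mostly ATP synthase subunits. The match does not show that each of them is an ATPase itself. Of 11 ABC transporters, abca5 was the 1 in module 6 and 6 lay in module 1.

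Proteases and unfoldases of the mitochondrion were represented by 3 genes. CLPX stood on 2 identifiers (ENSDARG00000029063 and ENSDARG00000067796), both in module 6. It encodes the unfoldase that feeds the ClpP protease of the mitochondrial matrix. AFG3L2 (ENSDARG00000062272) encodes a protease of the inner membrane. With the proteasome ATPase PSMC5, which the nucleus row lists, they made 4 of the 11 AAA+ ATPases in any module, and modules 2 and 1 held 3 and 2 of the others. The CLPX identifiers and PSMC5 were 3 of the 4 genes of module 6 under protein catabolic process, a row with 15.4-fold enrichment in the authors' deposited table (p = 0.00203, adjusted p = 0.227).

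Genes of RNA handling and translation included helicases, enzymes that load tRNA and a GTPase that joins the ribosomal subunits. UPF1 (ENSDARG00000016302), the helicase of nonsense-mediated decay, stood in 9 rows that the choice did not use, among them mRNA surveillance and RNA binding. SMG1, the kinase that acts on it, lay in module 5. The helicase and remodeller family had 9 of 24 genes in module 6, more than in any other module. In the authors' deposited table the helicase activity row had 4.12-fold enrichment from 8 genes (p = 0.00335, adjusted p = 0.0846). DHX15, UPF1 and chd4b were 3 of the 9 in the family, and CHD4, the symbol nearest to chd4b, lay in module 4. PAN3 (ENSDARG00000031637) encodes a pseudokinase subunit of a deadenylase, a complex that trims poly(A) tails.

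The synthetases RARS1 (ENSDARG00000054530) and NARS1 (ENSDARG00000061100) load arginine and asparagine onto tRNA. They were 2 of the 3 genes with a synthetase symbol in any module, and CARS1 lay in module 5. The gene eif5b (ENSDARG00000016548) encodes a GTPase that joins the ribosomal subunits, and kti12 (ENSDARG00000054301) a partner of Elongator in the modification of tRNA in yeast. NAXD (ENSDARG00000077119) repairs damaged NADH and NADPH, and NT5C3A (ENSDARG00000058597) removes phosphate from pyrimidine nucleotides.

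Among the 9 genes listed under nucleotide binding alone, 7 stood in the GTPase activity row and bind GTP, not ATP. They were the Ras-related RRAS2 (ENSDARG00000036252), rem1 (ENSDARG00000020544), a small GTPase that restrains L-type calcium channels, SEPTIN6 (ENSDARG00000010721), eif5b, tuba5 (ENSDARG00000042708), tuba8l2 (ENSDARG00000031164) and zgc:55461 (ENSDARG00000041723). The other two were POPDC2 and NT5C3A. The GTPase activity row held 13 genes of module 6, with 2.18-fold enrichment in the authors' deposited table (p = 0.0169, adjusted p = 0.292). The identifier zgc:55461 has no family name, and the chart lists it in the same rows as the tubulins, among them structural constituent of cytoskeleton and mitotic cell cycle. In microtubule-based process these 3 genes stood with TUBG1 of the spindle pole, and the authors' deposited table gives the row 6.64-fold enrichment (p = 0.0219, adjusted p = 0.94). Other tubulin symbols lay elsewhere, tuba8l4 and tuba2 in module 2, tuba8l3 in module 1, tubb5 in module 3 and tubb4b in module 5.

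**Figure D4:**
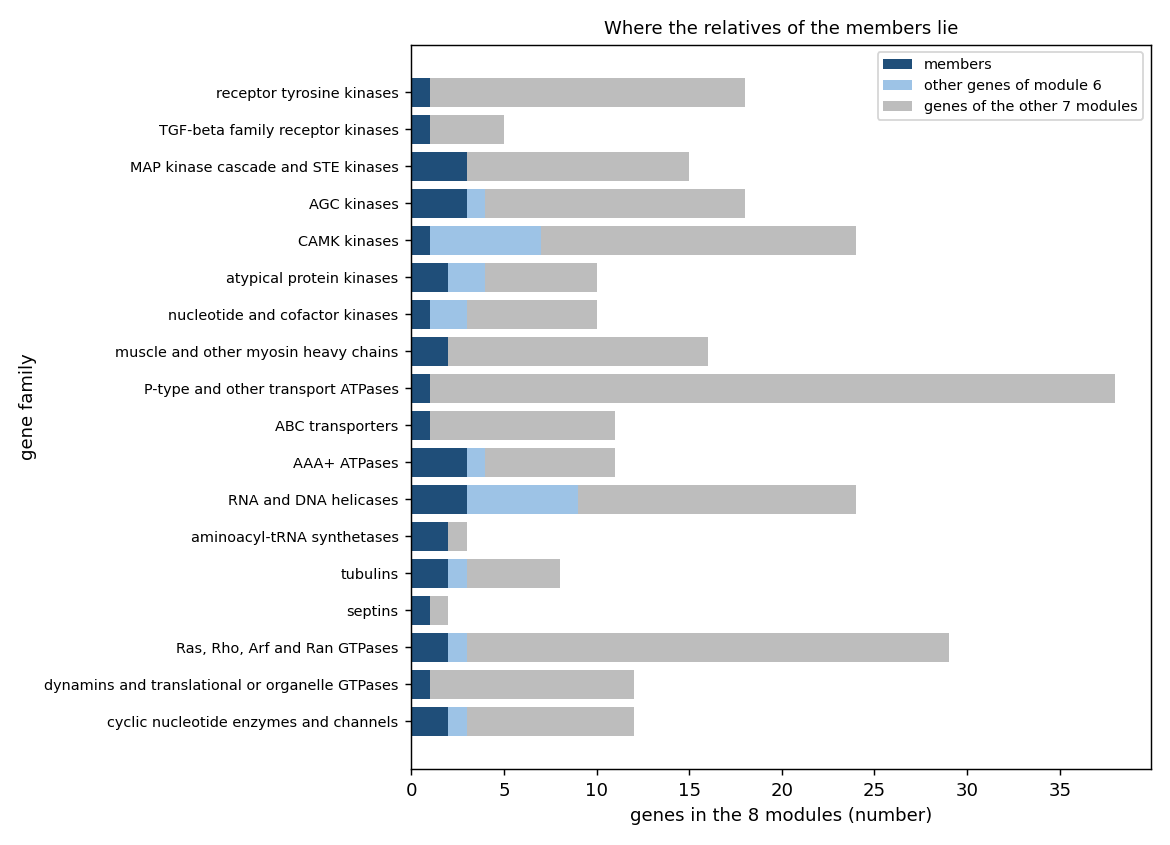
Bars give the number of genes in the 8 modules for each family that includes a gene described here. They are split into the genes described here, other genes of module 6 and genes of the other 7 modules. Families without a gene described here are not drawn. CAMK kinases and helicases have 7 and 9 of 24 genes each in module 6, and genes matched by symbol to transport ATPases 1 of 38.

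Copies of the 38 genes were looked up by symbol in the name table, where most genes lie in no module. Module 6 held 9.84% of module genes and 1.27% of the name table. Copies of other genes were not counted, so whether the 38 differ from them was not tested. In the name table, 15 of the 38 had a further identifier with the same symbol or with a symbol differing in a final a or b. For 8 of the 15 such an identifier lay in a module, and for 2, the CLPX pair, in module 6. Those in other modules were PDK2 and uckl1a in module 1, myo1ca in module 3, and CHD4 and MYH6 in module 4. EIF5 and eif5a, in modules 2 and 7, match eif5b by name but are different proteins. For akt2, INSR, TGFBR1, PRKG1, NUCKS1, CDC42BPB and ATP9B the further identifiers lay in no module; CDC42BPA and ATP9A are older sister genes and not zebrafish copies. Capitalised symbols do not say which zebrafish copy an identifier stands for.

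Neighbours along the genome were looked up for the 30 of the 38 that matched a RefSeq gene and whose symbol stands on a single identifier. For 8 of these 30 an adjacent protein-coding gene lay in any module, and for 1 in module 6. Of the 29201 genes in the name table, 3651 lay in a module and 1.27% in module 6. Neighbours of other genes were not counted, so whether the 38 differ from them was not tested. The 1 pair within module 6 was DHX15 and PPARGC1A, a coactivator that drives mitochondrial content, which neighbour each other in assembly GRCz12tu. Within the chart, the 38 genes stood in 0 to 12 rows besides the 3 that chose them, and for the kinases these include rows that restate kinase activity. The highest number was that of akt2, and abca5 and kti12 had none.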

How the data were processed

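Single cells were sequenced by SORT-seq with CEL-Seq2 chemistry, per the labels' protocols, and the submitters' processing notes name Seurat without a version. The aligner, genome build, annotation and module method were not given in the sources used here. In all, the deposited files were 8 lists of Ensembl gene identifiers and 8 annotation charts. Per the file headers, the charts give counts of genes in a term, the percent of the module they make up, the authors' fold enrichment (a ratio) and the authors' p-value with its Benjamini adjustment. The tool behind the charts and the choice of their background genes are not stated, and only counts, fold enrichments and p-values of the deposited charts were printed. No file holds values per plate, so depth is unknown and no plate entered a test.

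Genes were chosen by chart row as described above. Symbols came from a name table of 29201 genes, which gave one to 3651 of 4449 module genes. The RefSeq table (assembly GRCz12tu) served for synonyms and neighbours. A list of 32 families was matched by symbol, ignoring case and with an optional final a or b. The rule for names was to describe every gene of the kinase, motor, transport and ligase families and every gene with a copy in a module, and the others by role. Members and lists were chosen with earlier results of these data known. Exact (Clopper-Pearson) 95% intervals were computed with SciPy 1.17.1 in Python 3.11.15, no enrichment was tested, and genes are not replicates of fish. The rule was tested on a made-up chart. Alternatives changed the rows, filters, symbol matching, order of identifiers and denominator.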

Additional observations from a re-analysis of the deposited data

How the results depend on the processing

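The number of genes depended on the rows used: it was 38 as described, 13 from the kinase activity row alone and 58 without the filter on the nucleus row. The other 5 ways of choosing gave 28 to 45 genes, within 1.5 times of 38. With only the leading ascending run of identifiers in the module 6 list, 34 of the 38 were left. By symbol, 32 of the 38 were in a family, 30 with exact symbols and 32 with RefSeq symbols. With the whole name table as denominator, the share in module 6 was 4.31% for the kinase families and 3.29% for the ATPase, motor and ligase families, against 19.9% and 14.2% over the module genes alone. Most genes of the name table lie in no module, and module 6 held 1.27% of that table, against 9.84% of module genes. Exact symbols, leading runs and leaving out module 7 kept the kinase share at 20.7% to 25.6% and the ATPase share at 13.3% to 17.2%, inside the intervals of the reported values. Leaving out CAMK2N2 and the regulatory subunits moved the kinase share by less than its interval. Leaving out module 7 or those genes was chosen after seeing the data. The planned counts of kinase and Walker A motifs in the proteins were not run. No paired analysis was possible because no file carries values per plate, and so no replicate could be left out either. Many single families and chart rows hold 10 genes or fewer, which limits their shares.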

Other observations

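The ATPase, motor and ligase families together had 20 of 141 genes in module 6 (14.2%, exact 95% interval 8.88% to 21.1%), and the GTP-binding families 10 of 58 (17.2%, interval 8.59% to 29.4%). Module 6 held 9.84% of all module genes and 10.2% of module genes with a symbol, the set in which families were matched. The GTP-binding count takes in effectors of CDC42 in modules 1 and 5 (CDC42SE2, CDC42EP4, cdc42ep1a and cdc42ep1b), which its symbol pattern matched and which are no GTPases.

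The module 6 list runs through ascending identifiers several times, and 34 of the 38 genes (89.5%, exact interval 75.2% to 97.1%) stood in the leading run, beside 329 of all 438 genes (75.1%). The 4 others were zgc:55461, abca5, kti12 and ATP9B. The 38 could come only from the 291 genes of module 6 that the chart names. The share of those 291 in the leading run was not counted, so 75.1% is not a matched baseline. The meaning of the runs was not given in the sources used here.

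Of the 22 genes of the 3 rows that the nucleus row lists, PRKAA1 shared the insulin, FoxO and apelin rows with akt2, and CDK1 stood in the gap junction and senescence rows.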
